A study of Mus musculus with 6 samples.

Results

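Transcripts that mark oligodendrocytes, astrocytes, pericytes, smooth muscle cells, microglia and choroid plexus epithelium were measured in RNA from sorted brain endothelial cells. The members were 47 genes taken by name from the deposited table of 54532 genes: 10 oligodendrocyte, 10 astrocyte, 10 pericyte, 5 smooth muscle, 7 microglia and 5 choroid plexus markers. The question was how much of each class each library held and whether that amount followed the chow. All 6 libraries came from Df(h22q11)/+ mice, which carry a deletion on one chromosome that models human 22q11.2 deletion syndrome, so the controls carry the deletion too. The untreated group ate irradiated base chow and had 2 female libraries (F_1, F_2) and 1 male library (M_1). The bezafibrate group ate chow with 0.5% of the drug, an activator of the PPAR nuclear receptors, for 4 weeks, and had 1 female library (F_1) and 2 male libraries (M_1, M_2). The mice were aged 12 to 16 weeks, and each library pooled 3 brains of mice of the same sex and chow. Cells were sorted as live, CD31-positive, and negative for both CD45 (leukocytes and microglia) and PDGFRb (pericytes), after myelin had been removed on Percoll.

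Brain capillaries are built by endothelial cells that share a basement membrane with pericytes and are covered by astrocyte endfeet, and arterioles are ringed by smooth muscle. Oligodendrocytes wrap axons in myelin, and microglia are the resident phagocytes of the tissue. The choroid plexus is a vascularised epithelium in the ventricles that makes cerebrospinal fluid and secretes transthyretin.

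The libraries held 16858130 to 20228619 summed reads and held high levels of endothelial transcripts. Pecam1, which encodes CD31, stood at 207 to 291 FPKM (fragments per length of transcript and per library size, a unit that allows levels of different genes to be compared), and Slc2a1, which carries glucose across the blood-brain barrier, at 2705 to 5752 FPKM. Ptprc, which encodes CD45, was at most 0.035 FPKM. On the first principal component (39.3% of the variance) the scores of untreated M_1 and bezafibrate F_1 were 30.3 and 24.4, away from the range of -22.6 to 1.62 of the other 4. Several results that rest on them are given with and without them. The sexes are unevenly spread over the chow groups, so that sex and chow can move together.

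The 47 members together made up a small share of each library. Their summed level was 1797, 1898 and 2217 FPKM in the untreated libraries (F_1, F_2, M_1, in this order throughout) and 2122, 1717 and 2323 FPKM in the bezafibrate libraries (F_1, M_1, M_2). This was 0.627% to 0.838% of all FPKM in a library and 10.7% to 15.1% of the summed level of 30 endothelial markers. The chow groups overlapped on each of these scales. Mal, Apoe and Ttr, 1 gene each of the oligodendrocyte, astrocyte and choroid plexus classes, held 63.2% to 77.2% of the sum in every library, and ranked 58, 81 and 67 of all genes in the table by mean FPKM. At the other end, 34 of the 47 members had a mean under 10 FPKM. In bulk RNA, fewer cells of a type and less RNA per cell cannot be told apart.

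**Figure D1:**
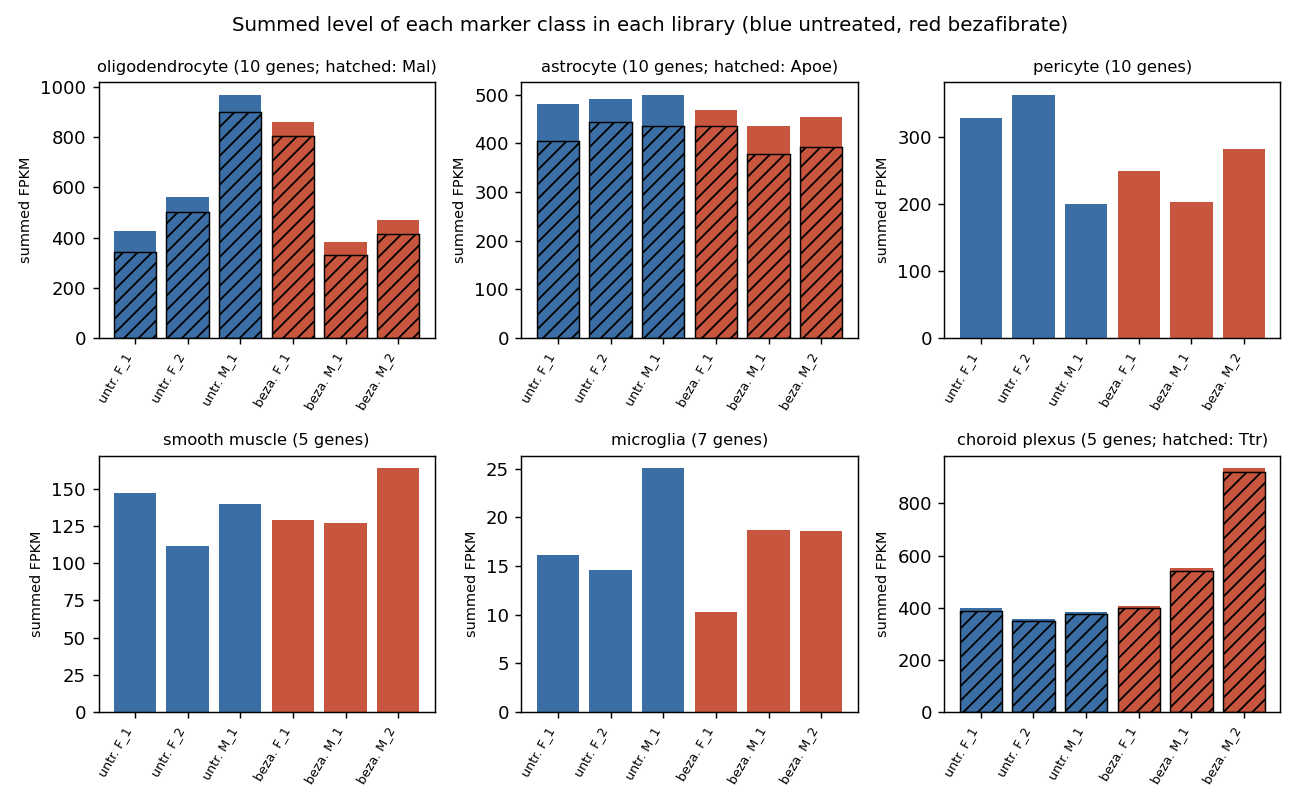
Summed FPKM (y axis) of the members of each class in each of the 6 libraries (x axis), 1 bar per library, with the hatched bar showing the part held by the named gene. Mal, Apoe and Ttr make up most of their classes, and the choroid plexus sum is highest in bezafibrate M_2 at 935 FPKM.

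No member changed with bezafibrate past the threshold. Of the 47, 44 reached 1 FPKM in 3 or more libraries and were tested with limma on log2(FPKM + 1). Trf, Tagln and Cx3cr1 missed that filter. Limma called 0 of 44 members at an adjusted p under 0.05, where it called 0.00887% of the 11277 genes tested, and limma-voom on recovered reads also called 0 members. The smallest adjusted p was 0.986, for Mbp. Without adjustment, 1 member had p under 0.05 and was higher with bezafibrate (Clic6), beside 2.1% of all genes, and 2 were lower (Mbp and Mobp), beside 2.08% of all genes.

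The groups did not overlap in 4 of the 44 tested members. Every bezafibrate library lay above every untreated library in Ttr and Clic6, 4.55% of the members tested, against 4.29% of all genes tested. Every bezafibrate library lay below every untreated library in Mbp and Mobp, again 4.55%, against 4.13% of all genes. Both shares are close to those of all genes. On TPM the groups overlapped in Ttr and stayed apart in the other 3. With fewer libraries the groups separate more often in all genes too. Without untreated M_1 and bezafibrate F_1, where the remaining untreated libraries are female and the bezafibrate libraries male, 18 members did not overlap, 40.9% of the 44, beside 38.0% of all genes. Without untreated F_2 the count was 15 (34.1%, beside 15.9% of all genes), without untreated M_1 it was 14 (31.8%, beside 17.2%), and without bezafibrate F_1 it was 9 (20.5%, beside 27.2%). Log2 differences lay below 0 in 32 members and above 0 in 12, beside 5845 below and 5432 above among all genes tested. The members had a median of -0.13, beside a median of -0.01 over all genes and a median SE of 0.24 among members. On TPM the members had a median of -0.035 and all genes one of 0.10.

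**Figure D2:**
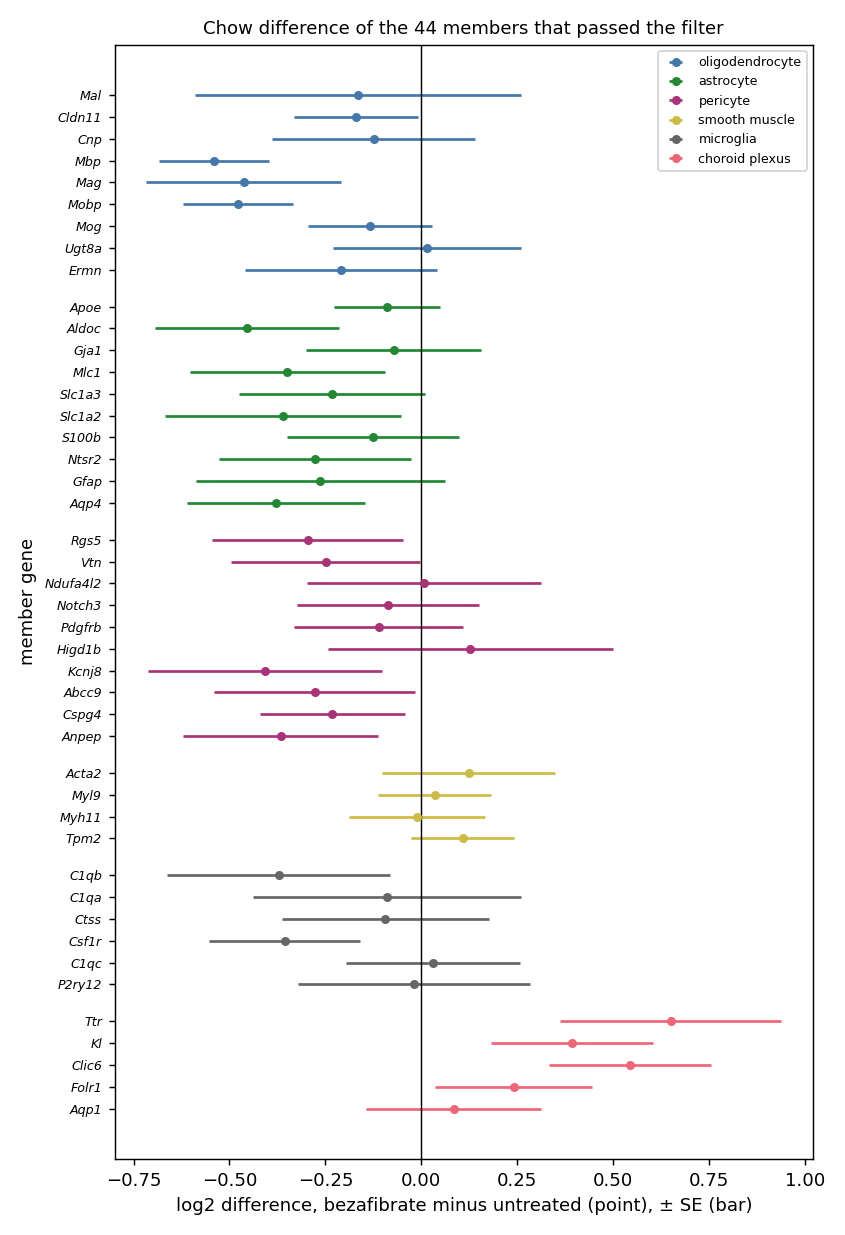
Log2 difference in FPKM + 1, bezafibrate minus untreated (x axis), for each of the 44 members tested (y axis), as points with bars of 1 SE, coloured by class. The 5 choroid plexus members lie above 0 and the 10 astrocyte members below 0 (8 of 10 on TPM, 4 of 10 with array weights), and no member passed the adjusted threshold.

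The oligodendrocyte members other than Mal were low. Mbp, the myelin basic protein, was at 14.9, 13.9 and 11.5 FPKM in the untreated libraries and 9.35, 8.45 and 8.84 FPKM in the bezafibrate libraries. The group means were 13.4 ± 1.79 and 8.88 ± 0.45 FPKM (SD, n = 3 each). The lowest untreated library stood 1.23 times above the highest bezafibrate library, and the log2 difference was -0.54 (SE 0.14, limma unadjusted p = 0.00593, adjusted p = 0.986). Mobp, a structural protein of compact myelin, was at 5.84, 7.15 and 6.09 FPKM in the untreated libraries and 4.76, 4.11 and 3.95 FPKM with bezafibrate. Its groups also lay apart, by a factor of 1.23, with a log2 difference of -0.48 (SE 0.14, limma unadjusted p = 0.011, adjusted p = 0.999). Within females, bezafibrate F_1 was 0.648 times the untreated mean for Mbp and 0.733 times for Mobp, and within males the factors were 0.754 and 0.663.

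The remaining myelin genes did not show this separation. Cldn11, the tight junction protein of myelin, was at 17.42, 14.02 and 15.64 FPKM untreated and 12.0, 13.3 and 16.4 FPKM with bezafibrate, so that bezafibrate M_2 exceeded 2 untreated libraries (log2 difference -0.17, SE 0.16). Cnp, a phosphodiesterase of non-compact myelin, was at 19.6, 8.76 and 14.2 FPKM untreated and 13.2, 10.6 and 13.3 FPKM with bezafibrate. Here the highest and the lowest library were both untreated (log2 difference -0.12, SE 0.26). The adhesion proteins Mag (4.78 to 10.3 FPKM) and Mog (4.40 to 6.42 FPKM), the cytoskeletal protein Ermn (1.498 to 3.79 FPKM) and Ugt8a, the enzyme of galactocerebroside synthesis (1.25 to 3.22 FPKM), overlapped between groups. So did Trf, the iron carrier transferrin, at 0.55 to 2.26 FPKM. Of the 10 members, 8 were highest in untreated F_1. Trf shares 63.5% of its exon bases with Gm20425, a gene on the same strand that was listed at 0 in every library, so that its level depends on how such reads were assigned.

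Mal was by far the highest gene of its class. It encodes a proteolipid of membrane rafts that is abundant in myelin, and it is also known from epithelial cells and T cells. Its level was 342, 503 and 902 FPKM untreated and 806, 330 and 413 FPKM with bezafibrate. The highest libraries were untreated M_1 and bezafibrate F_1, and the groups overlapped (log2 difference -0.17, SE 0.43, limma adjusted p = 0.999). The difference had opposite signs in the sexes, with bezafibrate at 1.91 times untreated within females and 0.412 times within males. Without untreated M_1 the log2 difference was 0.21, and without bezafibrate M_1 it was 0.10. With any 1 library left out it ran from -0.54 to 0.21. Mal held 89.8% of the summed oligodendrocyte means. Without untreated M_1 and bezafibrate F_1 the log2 ratio of the oligodendrocyte sum was -0.21. The sum without Mal was 83.7, 57.4 and 67.8 FPKM untreated and 53.4, 52.2 and 57.9 FPKM with bezafibrate, and its groups overlapped.

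From the lowest to the highest library, Mal took the order bezafibrate M_1, untreated F_1, bezafibrate M_2, untreated F_2, bezafibrate F_1, untreated M_1. Slc2a1 and Mfsd2a, the lipid transporter of brain endothelium, had this same order, which 139 of the 11277 genes tested (1.23%) shared. Cldn5, another endothelial marker, did not have it. Its level was 1010, 1386 and 1154 FPKM untreated and 1206, 774 and 783 FPKM with bezafibrate, highest in untreated F_2. The orders of the other endothelial markers are not reported here. Mal itself spanned a factor of 2.73 over the libraries. The ratio of Mal to Slc2a1 spanned 1.45, whereas the ratio of Mal to Mbp spanned 3.76. Slc2a1 was the only endothelial marker whose ratio to Mal was taken, so the narrow span is not a result about endothelial markers in general. Mbp was highest in untreated F_1, where Mal was low. The ratio of Mbp to Mobp spanned 1.36. With 6 libraries these ratios are descriptions, and the cells from which Mal was read were not tested.

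**Figure D3:**
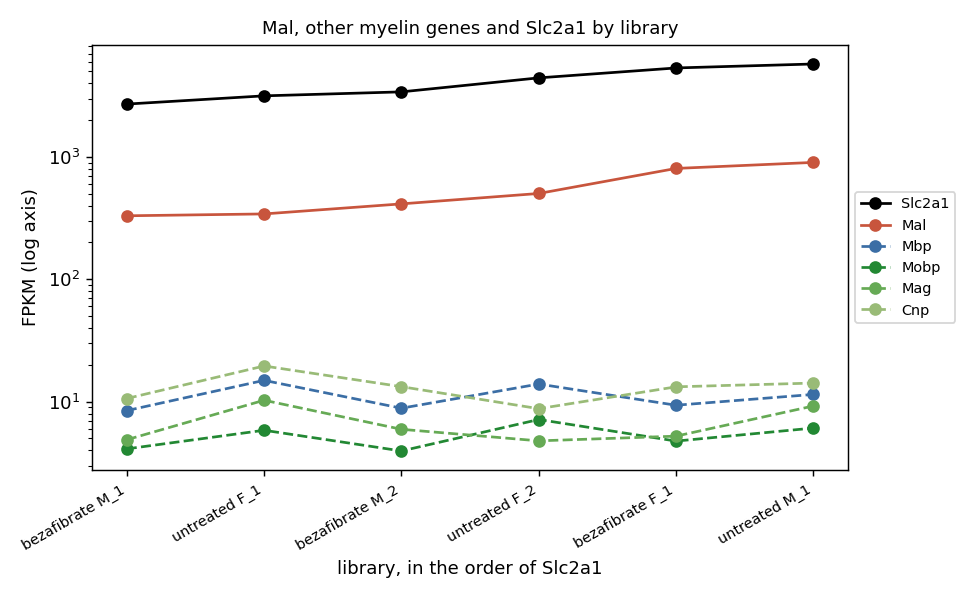
FPKM (y axis, log scale) of Mal, 4 other myelin genes and the endothelial gene Slc2a1 in the 6 libraries, which are placed along the x axis from the lowest to the highest Slc2a1. Mal is higher at every step to the right, like Slc2a1, whereas Mbp, Mobp, Mag and Cnp are not. The endothelial marker Cldn5, which had another order, is not shown.

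Whether upstream sequence bears on the order of these genes over libraries was not tested. The sequences upstream of Mal and of a pair of myelin genes are shown as a description. They are RefSeq promoters of GRCm38.p6, of which 34 of the 47 members had one, given 5′ to 3′ on the strand of the gene up to the start of the gene as the deposited table places it. Each was searched over the 250 bases before the RefSeq start, on both strands, for ACAAAG, a core of SOX factor sites, and GGAAGT, a core of ETS factor sites, and matches are in capitals. The Mal stretch lies at chr2:127656696-127656945 on the minus strand, that of Mag at chr7:30914874-30915113 on the minus strand, and that of Mobp at chr9:120149492-120149706 on the plus strand.
Mal: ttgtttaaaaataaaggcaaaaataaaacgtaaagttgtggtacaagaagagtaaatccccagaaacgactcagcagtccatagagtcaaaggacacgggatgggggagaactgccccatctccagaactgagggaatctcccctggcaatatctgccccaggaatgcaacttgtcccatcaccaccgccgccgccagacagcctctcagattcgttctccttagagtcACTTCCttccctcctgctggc
Mag: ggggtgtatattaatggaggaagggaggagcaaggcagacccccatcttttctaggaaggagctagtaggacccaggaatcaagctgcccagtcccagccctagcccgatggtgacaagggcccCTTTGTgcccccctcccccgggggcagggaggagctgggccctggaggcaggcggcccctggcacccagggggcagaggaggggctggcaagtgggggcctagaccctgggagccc
Mobp: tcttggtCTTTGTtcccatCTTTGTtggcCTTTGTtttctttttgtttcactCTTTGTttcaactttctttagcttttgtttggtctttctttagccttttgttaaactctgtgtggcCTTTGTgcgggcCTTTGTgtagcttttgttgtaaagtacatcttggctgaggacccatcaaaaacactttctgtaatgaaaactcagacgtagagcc
The Mobp stretch held the SOX core 6 times and the ETS core 0 times. The Mag stretch, from the first of its RefSeq entries, held the SOX core once, 126 bases before the RefSeq start. The Mal stretch held the ETS core once, 21 bases before the start, and the SOX core 0 times. Of 32851 RefSeq promoters of the same length, 16.5% held the SOX core and 19.7% the ETS core, so that a match is a description of these letters only.

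Astrocyte members were lower with bezafibrate in sign only: all 10 had a log2 difference below 0 in FPKM, but 8 of 10 on TPM and by limma-voom, 9 of 10 after quantile scaling, 8 of 10 without untreated F_1 or without bezafibrate F_1, and 6 of 10 without untreated M_1 and bezafibrate F_1. With array weights 4 of 10 were below 0 and the class median was 0.025. The median was -0.27, and limma called 0 of them, with 0 also at an unadjusted p under 0.05. Apoe, the lipid carrier apolipoprotein E, which other brain cells also make, was nearly level, at 405, 443 and 435 FPKM untreated and 436, 378 and 393 FPKM with bezafibrate. Its groups overlapped, it spanned a factor of 1.17, the narrowest range of the 47 members, and its log2 difference was -0.09 (SE 0.14). The difference was 0.03 on TPM, 0.10 after quantile scaling and 0.02 by limma-voom, so its sign depended on the scaling. Both TPM scaling and limma-voom gave an all-gene median of 0.10, against -0.01 in FPKM, so that a value below 0.10 there lies under the median gene.

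Aldoc, the brain form of fructose-bisphosphate aldolase, was at 25.0, 17.1 and 22.1 FPKM untreated and 10.49, 17.87 and 18.48 FPKM with bezafibrate. The value of bezafibrate F_1 lay below all others, while the 2 male bezafibrate libraries lay above untreated F_2 (log2 difference -0.45, SE 0.24). Gja1, the gap junction protein connexin 43 by its common name and also made by endothelial and mural cells, was at 9.69, 7.82 and 6.41 FPKM untreated and 5.72, 6.96 and 10.3 FPKM with bezafibrate. Its highest and lowest libraries were both from the bezafibrate group (log2 difference -0.07, SE 0.23, with values of 0.03 on TPM and 0.02 by limma-voom). The glutamate transporters Slc1a2 and Slc1a3 lay at 2.59 to 8.02 and 3.48 to 7.46 FPKM, the endfoot water channel Aqp4 at 0.885 to 2.69 FPKM and the membrane protein Mlc1 at 3.71 to 8.29 FPKM. The neurotensin receptor Ntsr2 lay at 2.24 to 5.10 FPKM, the calcium-binding protein S100b at 2.99 to 5.63 FPKM and the intermediate filament Gfap at 1.42 to 4.79 FPKM. Of the 10 astrocyte members, 8 were lowest in bezafibrate F_1 and 8 were highest in untreated F_1, both female.

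The summed astrocyte level was 481, 492 and 500 FPKM untreated and 469, 435 and 453 FPKM with bezafibrate. These groups did not overlap, but Apoe made up 88% of the summed means. As a percentage of all FPKM the sum was 0.169, 0.163 and 0.155 untreated and 0.152, 0.171 and 0.163 with bezafibrate, and the groups overlapped. Without Apoe it was 76.7, 48.5 and 65.1 FPKM untreated and 33.8, 56.8 and 59.9 FPKM with bezafibrate, also overlapping.

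**Figure D4:**
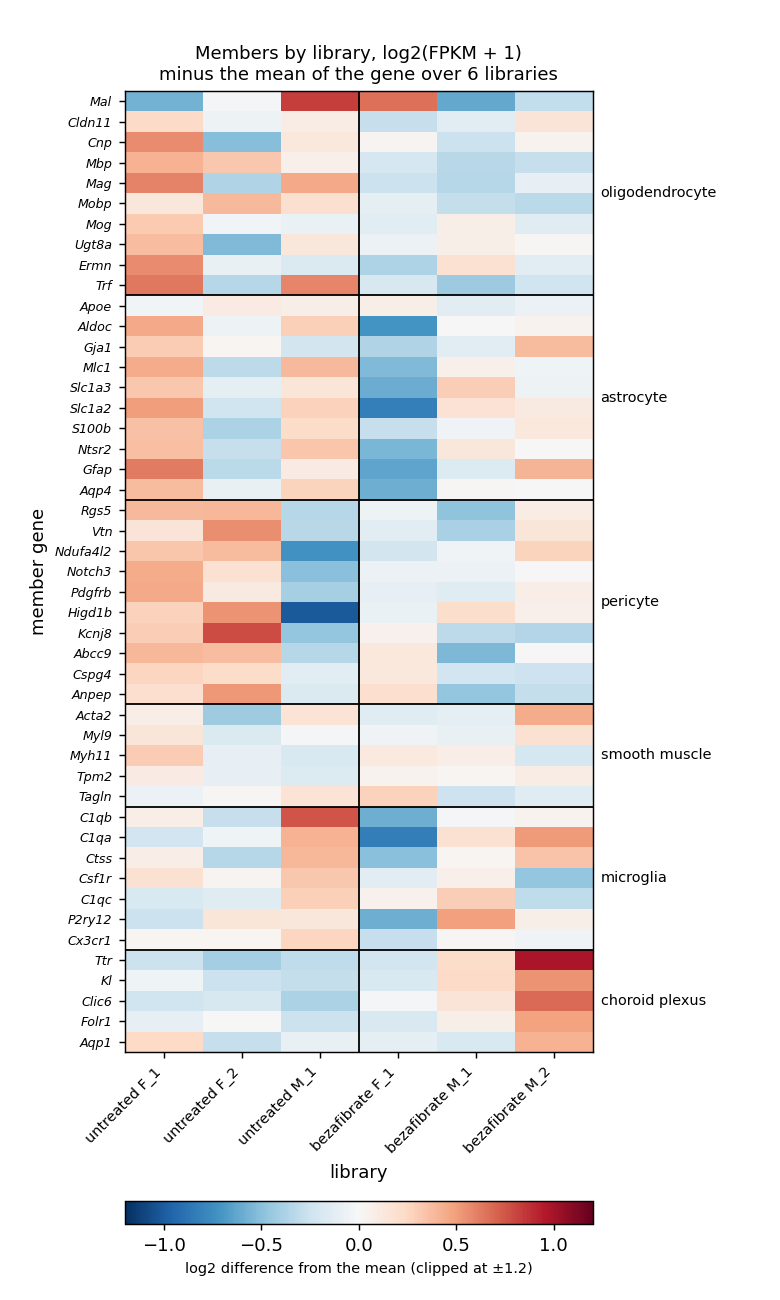
Log2(FPKM + 1) of each of the 47 members (rows, by class and then by mean level) in the 6 libraries (columns), minus the mean of the gene over the libraries, with red above and blue below that mean. The astrocyte rows are mostly lowest in bezafibrate F_1, the pericyte rows are highest in the female untreated libraries, and the choroid plexus rows are highest in bezafibrate M_2.

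Pericyte members were present although the sort had gated out PDGFRb-positive cells. Pdgfrb itself was at 12.2, 9.29 and 6.29 FPKM untreated and 7.93, 7.67 and 9.13 FPKM with bezafibrate. Its highest and lowest libraries were both untreated (log2 difference -0.11, SE 0.22). Rgs5, a regulator of G-protein signalling and the highest pericyte member, was at 162, 164 and 97.1 FPKM untreated and 119, 88.5 and 132 FPKM with bezafibrate. The female untreated libraries were highest, and the log2 difference was -0.30 (SE 0.25). Vtn, the matrix protein vitronectin, was at 96.0, 128 and 68.3 FPKM untreated and 78.8, 65.9 and 95.5 FPKM with bezafibrate, with a log2 difference of -0.25 (SE 0.25). Its ratio to Rgs5 was steady: Rgs5 over Vtn spanned a factor of 1.32 over the libraries, where each gene spanned 1.85 and 1.94.

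Ndufa4l2, a mitochondrial protein induced by hypoxia, was at 15.3, 15.8 and 6.79 FPKM untreated and 10.1, 11.6 and 14.5 FPKM with bezafibrate. Untreated M_1 was lowest, and the log2 difference of 0.01 (SE 0.30) became -0.35 without that library. Higd1b, another mitochondrial protein of pericytes, showed the same low library, at 9.63, 11.7 and 3.37 FPKM untreated and 7.28, 9.16 and 8.17 FPKM with bezafibrate. Kcnj8 and Abcc9 encode the pore and the sulfonylurea receptor of one potassium channel and lie next to each other on chromosome 6, 16247 bases apart. Kcnj8 was at 4.23 to 11.5 FPKM and Abcc9 at 2.56 to 5.80 FPKM. The receptor Notch3 was at 6.63 to 13.7 FPKM, the proteoglycan Cspg4 (NG2) at 1.91 to 3.14 FPKM and the aminopeptidase Anpep (CD13) at 1.00 to 2.96 FPKM. Of the 10 pericyte members, 6 were highest in untreated F_2 and the other 4 in untreated F_1, while 5 were lowest in untreated M_1 and 4 in bezafibrate M_1. The class sum was 328, 363 and 199 FPKM untreated and 248, 202 and 281 FPKM with bezafibrate, and its groups overlapped. Within males the summed level was higher with bezafibrate (log2 ratio 0.28), against -0.28 over all libraries. Without untreated M_1 and bezafibrate F_1, where sex and chow coincide, this ratio was -0.51. In that setting all 10 members had a log2 difference below 0 (median -0.48). Over all libraries 8 of 10 did (median -0.24), and with array weights all 10 (median -0.45).

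Smooth muscle members had a median log2 difference of 0.07 in FPKM, and of 0.19 on TPM. Acta2, smooth muscle actin, was at 63.1, 44.2 and 67.2 FPKM untreated and 54.06, 54.97 and 81.86 FPKM with bezafibrate. Bezafibrate M_2 was highest and untreated F_2 lowest (log2 difference 0.12, SE 0.23). Myl9, the regulatory myosin light chain, was at 65.2, 52.0 and 58.0 FPKM untreated and 57.2, 55.4 and 66.9 FPKM with bezafibrate, with the same 2 libraries at the ends (log2 difference 0.03, SE 0.15). Myh11, the smooth muscle myosin heavy chain, was at 12.4, 9.17 and 8.57 FPKM untreated and 10.83, 10.48 and 8.416 FPKM with bezafibrate, and its log2 difference was -0.01 (SE 0.18). The sign of these 3 small differences turned under other settings: Acta2 and Myl9 were at -0.07 and -0.05 without bezafibrate M_2, and Myh11 at 0.10 on TPM. Tpm2, beta-tropomyosin, lay at 5.24 to 6.46 FPKM. Tagln, which encodes the actin-binding protein SM22, was at only 0.26 to 0.81 FPKM, and the ratio of Acta2 to Tagln spanned a factor of 3.53. Of the exon bases of Tagln, 67.9% overlap genes on the opposite strand, among them Pcsk7 at 9.72 to 11.9 FPKM. Whether counting used strand is not stated in the labels, so the level of Tagln is uncertain.

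Microglia members were the lowest class, with a sum of 16.1, 14.5 and 25.1 FPKM untreated and 10.3, 18.7 and 18.6 FPKM with bezafibrate. C1qb, a chain of the complement component C1q, was at 4.94, 3.66 and 8.51 FPKM untreated and 2.76, 4.58 and 4.79 FPKM with bezafibrate. Untreated M_1 was highest and bezafibrate F_1 lowest (log2 difference -0.37, SE 0.29). C1qa, another chain, was at 3.01, 3.56 and 5.28 FPKM untreated and 1.66, 4.34 and 5.73 FPKM with bezafibrate (log2 difference -0.09, SE 0.35). Here the 3 male libraries lay above the 3 female ones. Ctss, the lysosomal protease cathepsin S, was at 3.44, 2.31 and 4.52 FPKM untreated and 1.96, 3.26 and 4.31 FPKM with bezafibrate (log2 difference -0.09, SE 0.27). Without untreated M_1 and bezafibrate F_1 the log2 differences of C1qb, C1qa and Ctss were 0.11, 0.49 and 0.31.

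C1qc, the remaining C1q chain, was at 1.13 to 2.22 FPKM. The chains lie side by side on chromosome 4, yet their ratios were not steady: C1qc over C1qb spanned a factor of 2.66 and C1qa over C1qb 1.99, at 31 to 172 reads per library for C1qa and C1qb. The purinergic receptor P2ry12 was at 0.31 to 1.75 FPKM, with 14 to 95 reads, and the fractalkine receptor Cx3cr1 at 0.30 to 0.87 FPKM, with 24 to 73 reads. These counts limit the precision of the microglial values. Csf1r, the receptor for colony-stimulating factor, was at 1.035 to 2.503 FPKM, and 15.1% of its exon bases overlap the opposite-strand gene Hmgxb3, at 2.85 to 5.79 FPKM. Of the 7 members, 5 were lowest in bezafibrate F_1 and 4 highest in untreated M_1.

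Choroid plexus members were higher with bezafibrate in sign, all 5 also on TPM, after quantile scaling and by limma-voom, but 4 of 5 with a replicate block, without untreated F_2 or without bezafibrate M_2. The 2 male bezafibrate libraries stood highest in Ttr, Clic6, Kl and Folr1. Ttr, transthyretin, was at 389, 349 and 375 FPKM untreated and 397, 540 and 919 FPKM with bezafibrate. The groups did not overlap, but bezafibrate F_1 stood only 1.02 times above the highest untreated library, and bezafibrate M_2 was far above the rest. The group means were 371 ± 19.9 and 619 ± 270 FPKM (SD, n = 3 each). The ratio of group means was 1.67, with a log2 difference of 0.65 (SE 0.29, limma unadjusted p = 0.0558, adjusted p = 0.999). Clic6, a chloride channel protein, was at 2.01, 2.12 and 1.73 FPKM untreated and 2.51, 2.96 and 4.72 FPKM with bezafibrate. Its groups lay 1.18 times apart, and the log2 difference was 0.54 (SE 0.21, limma unadjusted p = 0.0342, adjusted p = 0.999).

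Kl, the FGF23 co-receptor klotho, was at 2.51, 2.03 and 1.98 FPKM untreated and 2.19, 3.26 and 4.27 FPKM with bezafibrate. Bezafibrate F_1 lay among the untreated libraries and the male bezafibrate libraries above them (log2 difference 0.39, SE 0.21). The folate receptor Folr1 was at 2.25, 2.47 and 1.90 FPKM untreated and 2.06, 2.64 and 3.85 FPKM with bezafibrate (log2 difference 0.24, SE 0.21). The water channel Aqp1 was at 2.556, 1.496 and 1.845 FPKM untreated and 1.80, 1.66 and 3.04 FPKM with bezafibrate (log2 difference 0.08, SE 0.23). All 5 members were highest in bezafibrate M_2.

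Clic6 and Kl varied over the libraries nearly in proportion to Ttr, and Folr1 less closely. Ttr spanned a factor of 2.63 over the libraries, but Ttr over Clic6 spanned 1.37, Ttr over Kl 1.39 and Ttr over Folr1 1.69. Within females, bezafibrate F_1 was 1.08 times the untreated mean for Ttr, 1.22 times for Clic6, 0.967 times for Kl and 0.871 times for Folr1. Within males the bezafibrate mean was 1.95, 2.21, 1.90 and 1.71 times untreated M_1 for these genes. The class sum was 398, 358 and 382 FPKM untreated and 406, 551 and 935 FPKM with bezafibrate, a ratio of means of 1.66. As a percentage of all FPKM it was 0.140, 0.118 and 0.118 untreated and 0.132, 0.217 and 0.337 with bezafibrate, where the groups overlapped. Leaving out 1 library at a time, the log2 ratio of the class sum lay between 0.33 and 0.97. Ttr made up 98.0% of the summed means. Without Ttr the sum was 9.32, 8.11 and 7.46 FPKM untreated and 8.56, 10.5 and 15.9 FPKM with bezafibrate. Its groups overlapped, with a ratio of means of 1.40.

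**Figure D5:**
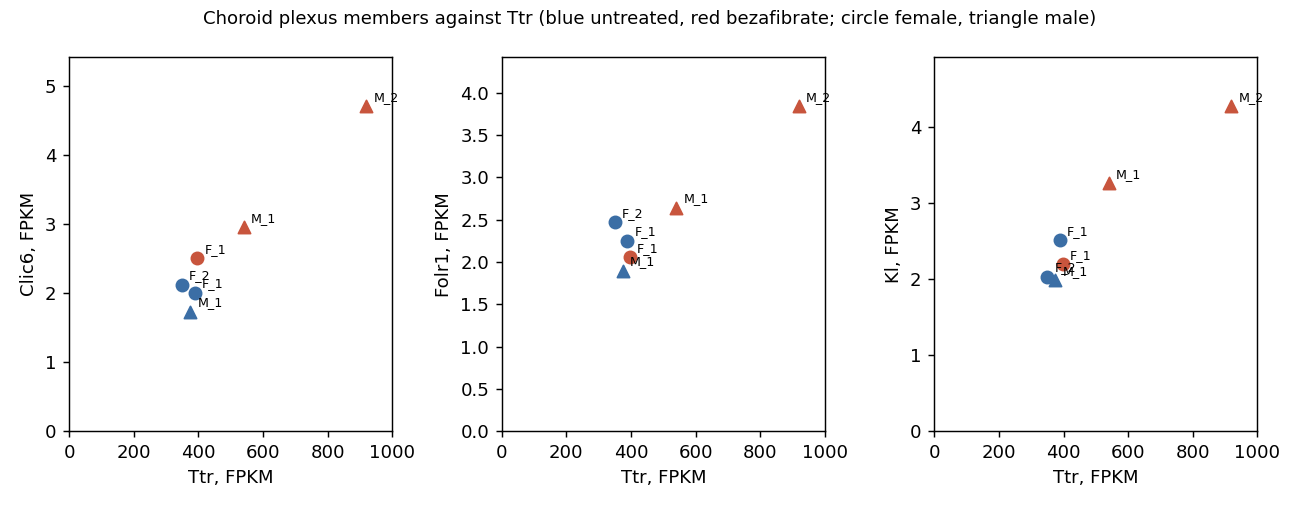
Level of Clic6, Folr1 and Kl (y axes, FPKM) against Ttr (x axis, FPKM) in each library, with untreated libraries in blue and bezafibrate in red, females as circles and males as triangles. Bezafibrate M_2 is highest on every axis, at 919 FPKM of Ttr, and bezafibrate F_1 lies beside the untreated libraries.

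The sexes were compared in the same way. With chow as a covariate, limma called 0 of 44 members between males and females, where it called 0.0266% of all genes tested, with a smallest adjusted p among members of 1.00. Without adjustment, 6 members had p under 0.05, beside 2.94% of all genes. Kcnj8, Abcc9 and Anpep were lower in males, by 0.70, 0.56 and 0.55 on the log2 scale. C1qa, C1qb and Ctss were higher in males, by 0.86, 0.73 and 0.60. In sign, all 10 pericyte members were lower in males (median log2 difference -0.41) and all 6 tested microglia members were higher (median 0.57), and these signs were the same on TPM, after quantile scaling and by limma-voom. They rested on untreated M_1: without it 5 of 10 pericyte members were lower in males and 4 of 6 microglia members higher. Without bezafibrate M_1, and without chow as a covariate, 5 of 6 microglia members were higher. Of the astrocyte members, 9 of 10 were higher in males (median 0.37), also without untreated M_1, and 8 of 10 without bezafibrate F_1 or M_2. All 5 choroid plexus members were higher (median 0.14), but 1 of 5 without bezafibrate F_1 and 2 of 5 without bezafibrate M_2. Oligodendrocyte (3 of 9 higher) and smooth muscle members (2 of 4) were mixed. An added fit with a chow-by-sex term, which leaves 2 residual degrees of freedom, called 0 of 44 members, where it called 0.665% of all genes. The smallest adjusted p of that term was 0.0592, for Higd1b, followed by 0.0621 for Mal and 0.0709 for Ndufa4l2. This term sets untreated M_1 and bezafibrate F_1 against the other 4 libraries, which is the split of the first principal component, and the sex effect and these libraries cannot be told apart in it.

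In longer lists of markers for the same cell types limma called 0 genes for chow, beside 0.00887% of all genes tested. At an unadjusted p under 0.05 there were 4 distinct genes. Lower were Mbp, Mobp and Plekhb1, a membrane protein gene at -0.41 (SE 0.15), 3 of 27 tested oligodendrocyte genes. Higher was Clic6, 1 of 12 tested choroid plexus genes. The tested astrocyte (29), pericyte (20), smooth muscle (13) and microglia (10) genes held 0. Over all genes tested, 2.1% were higher and 2.08% lower at this p. In the oligodendrocyte list 6 of 27 tested genes lay above 0 and 21 below, in the astrocyte list 4 and 25, in the pericyte list 5 and 15, and in the smooth muscle list 7 and 6. The microglia list had 4 above and 6 below, and the choroid plexus list 9 above and 3 below, with a median of 0.24. Among 30 endothelial markers 7 lay above and 23 below, with a median of -0.11. Over all genes tested 5432 lay above and 5845 below. Enpp2, autotaxin, which marks both choroid plexus and oligodendrocytes, was at 61.2, 49.5 and 58.1 FPKM untreated and 48.9, 66.7 and 88.6 FPKM with bezafibrate, highest in bezafibrate M_2 like Ttr. Glul, glutamine synthetase and the highest gene of the astrocyte list, was at 471, 436 and 445 FPKM untreated and 482, 512 and 509 FPKM with bezafibrate, and lay higher with bezafibrate where the astrocyte members lay lower (log2 difference 0.15, SE 0.13). Smtn, smoothelin, had the highest mean of the smooth muscle list, at 50.1, 78.7 and 98.3 FPKM untreated and 113, 53.7 and 63.3 FPKM with bezafibrate, and was highest in bezafibrate F_1 and untreated M_1, like Mal. In the microglia list Laptm5, a lysosomal protein gene, lay at 5.47 to 10.2 FPKM.

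Markers of other cells that the sort could hold were measured beside them. Their highest genes included Foxj1 and Tmem212 (ependymal cilia), Hbb-bs and Hba-a1 (haemoglobin), Stmn2 and Tubb3 (neurons), Ptgds and Col1a2 (fibroblasts), Stab1 and Maf (border macrophages), Cspg5 and Gpr17 (oligodendrocyte precursors) and Cd79a and S100a9 (leukocytes). The 7 tested ependymal genes lay above 0 in 6 cases, and their list summed to 21.9, 8.86 and 13.5 FPKM untreated and 18.5, 20.9 and 22.5 FPKM with bezafibrate. Haemoglobin and other erythrocyte markers summed to 298 FPKM in untreated F_1 and to between 45.5 and 149 FPKM elsewhere. Untreated F_1 was also the library in which 22 of the 47 members were highest. Oligodendrocyte precursor markers summed to 3.64 to 5.74 FPKM, neuronal markers to 13.8 to 20.4 FPKM, fibroblast markers to 25.7 to 42.2 FPKM and border macrophage markers to 18.7 to 23.9 FPKM. Leukocyte markers summed to at most 1.45 FPKM, and 6 of 12 were listed at 0 in every library. The part of any of these cells in the values of the members was not tested.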

How the data were processed

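RNA-seq libraries were made with SMART-Seq HT and Nextera XT and sequenced as 75-base single ends. Salmon mapped the de-duplicated reads, per the labels' protocols, and the genome was GRCm38, per the submitters' processing notes. Salmon's version, strand use and the normalisation were not given in the sources used. The authors deposited FPKM for 54532 genes, with gene lengths and the positions used here. The untreated male library was matched to its column, which has a different number, through its description. Spreadsheet dates in place of 27 gene names were turned back by gene ID.

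FPKM times gene length, divided by 1 scale factor found for each library, was a whole number of reads for 100% of values (tolerance 0.01), which gave depth and input for limma-voom. The library size that this factor implies was not the summed reads. Summed reads over it were 0.950, 1.03 and 1.09 in the untreated libraries. With bezafibrate the ratios were 1.06, 0.888 and 0.897. The 11277 genes that reached 1 FPKM in 3 or more libraries were fitted with limma 3.58.1 in R 4.3.3 (statmod 1.5.0) on log2(FPKM + 1), by lmFit and eBayes with trend, two-sided, with Benjamini-Hochberg adjustment over all genes tested and a threshold of 0.05. This scale understates differences of low genes. Chow was fitted without a covariate, as the labels describe combining the sexes, and sex with chow as covariate. The chow-by-sex fit and the class sums without their highest member were added after the data were seen. The code was tested on simulated data, with changes larger than that of any member and placed in higher genes only. That test therefore does not show whether changes of the members' size would be called. Replicates are pools of separate animals, 3 per group, and p-values reflect the spread among these pools. An exact permutation test of 3 against 3 cannot go below 0.1.

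Values in every library are given for the 3 highest members of each class by mean FPKM and for members called or with chow groups that do not overlap, and genes of longer lists are named when called or among the 2 highest of their list, with some not reported here. Pdgfrb, Higd1b, Folr1, Aqp1, Mfsd2a and Plekhb1 were added after their values were seen. The members and lists were chosen with earlier results of these data known. Alternatives were other scalings, filters and pseudocounts, sex as covariate, a block on library names, array weights and leaving libraries out.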

Additional observations from a re-analysis of the deposited data

Results flagged for a closer look

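The chow difference differed between the sexes in 3 genes of the longer marker lists by the chow-by-sex term of limma, each at an adjusted p of 0.0468, with 0 of the 44 members tested called. These are 3 of the 158 genes tested over all lists (1.9%), beside 0.665% of all genes tested. Fgfr3, a growth factor receptor listed for astrocytes, was at 11.9, 16.7 and 38.8 FPKM untreated and 33.5, 14.1 and 11.9 FPKM with bezafibrate, and its male minus female difference of log2 changes was -2.71 (SE 0.35). Trpv4, a cation channel listed for choroid plexus, was at 20.8, 18.2 and 60.7 FPKM untreated and 45.5, 21.9 and 22.0 FPKM with bezafibrate (-2.61, SE 0.26). Tspan2, a tetraspanin listed for oligodendrocytes, was at 13.6, 11.2 and 29.1 FPKM untreated and 20.34, 9.999 and 9.858 FPKM with bezafibrate (-2.14, SE 0.28). All 3 were highest in untreated M_1 and bezafibrate F_1, as was Mal (-2.24, SE 0.42, adjusted p = 0.0621). Untreated M_1 and bezafibrate F_1 are the lone libraries of their sex and chow, so the sexes and these libraries cannot be told apart.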

How the results depend on the processing

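Limma called 0 members for chow and for sex under every alternative run. With 1 library left out, the log2 ratio of the class sum turned sign in some classes. It ran from -0.61 to 0.21 (oligodendrocyte), -0.38 to 0.047 (microglia) and -0.052 to 0.16 (smooth muscle). The sign held for the astrocyte, pericyte and choroid plexus sums there. Mal held 89.8% of the summed oligodendrocyte means and Ttr 98.0% of the choroid plexus means, so those sums mostly follow these genes. Class sums moved by less than the spread between libraries, a measure that ignores sign, in 67 of 78 settings. The exceptions, as log2 ratios, were oligodendrocyte 0.80 within females and -1.18 within males, pericyte 0.28 within males, microglia 0.28 without untreated M_1 and bezafibrate F_1, choroid plexus 0.10 within females, and astrocyte -0.00039 on TPM, 0.043 per endothelial marker, -0.26 as a mean of log2 values, -0.051 within females, -0.17 within males and -0.34 without Apoe, the last added after the data were seen. Over all genes the single call became 0 with a replicate block, 0 by limma-voom, 0 without untreated M_1 and bezafibrate F_1, and 0 to 3 with any 1 library left out; the count of members whose groups do not overlap became 18 without both libraries, where 38.0% of all genes did not overlap, and 5 to 15 with any 1 left out, where 15.2% to 27.2% of all genes did not. Of 20 members named by rule, 9 never turned sign in the settings run for single members, which did not include comparisons within each sex. The others did, at log2 differences of 0.034 (Gja1), 0.028 (Apoe) and 0.10 (Myh11) on TPM, 0.10 (Apoe) by quantile scaling, 0.069 (Myh11) with sex as covariate, -0.25 (Acta2), -0.13 (Myl9) and 0.040 (Myh11) with the replicate block, 0.11 (Cnp), -0.21 (Ndufa4l2), 0.026 (Myh11), 0.15 (C1qa) and 0.21 (Ctss) with array weights, 0.023 (Gja1), 0.022 (Apoe) and 0.10 (Myh11) by limma-voom, and -0.25 (Ndufa4l2), 0.49 (C1qa), 0.11 (C1qb) and 0.31 (Ctss) without both libraries. With 1 library left out the ranges were -0.41 to 0.13 (Cnp), -0.28 to 0.093 (Gja1), -0.11 to 0.14 (Myh11), -0.069 to 0.24 (Acta2), -0.047 to 0.12 (Myl9), -0.54 to 0.21 (Mal), -0.35 to 0.20 (Ndufa4l2), -0.37 to 0.30 (C1qa) and -0.29 to 0.13 (Ctss). The cause was not tested. Within females and males, Rgs5 stood at 0.728 and 1.14 times untreated, Vtn at 0.704 and 1.18, and Kl at 0.967 and 1.90. The other members that never turned, Aldoc, Cldn11, Clic6, Mbp, Mobp and Ttr, lay on the same side of untreated in both sexes. The block paired libraries that share a name (F_1, M_1), whose deviations from the group means correlated at -0.36 and -0.30, so the names were not taken as pairs. The fit of sex without both libraries was not run, since sex and chow then coincide. Depth limits the microglial members, with as few as 14 reads in a library.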
